A study of Mus musculus with 4 samples.

Results

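The comparison sets lung fibroblast RNA of postnatal day 28 (P28) against that of postnatal day 7 (P7), the interval over which the mouse lung finishes dividing its airspaces into alveoli. It uses 2 of the 4 libraries of a time course in cells labelled Pdgfra+, that is, bearing PDGF receptor alpha. The mice were wild-type C57BL6 at every age, the labels name no treatment, and they give lung as the tissue and Pdgfra+ fibroblasts as the cells. The other 2 libraries are from embryonic days 16.5 (E16.5) and 18.5 (E18.5) and are given here only as a reference for level. Each age has 1 library, and neither the number of animals behind it nor the way the cells were isolated is stated in the labels. Differences between P7 and P28 are therefore differences between 2 libraries, described by size, with no replicate check and no test. The depth of the libraries is unknown, since FPKM (fragments per kilobase of transcript, relative to all mapped fragments) holds no read totals.

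Of 23444 gene symbols, 6374 reached 5 scaled FPKM in the higher of the P7 and P28 libraries, and these are the genes compared. Scaled FPKM is the deposited FPKM divided by a factor per library, 1.38 for P7 and 1.08 for P28, which sets the median ratio of 7930 genes seen at all 4 ages to a common level. A difference is that of log2(scaled FPKM + 1), P28 minus P7, and a gene is called higher or lower at P28 where it is at least 1, which is 2-fold on that scale. By this rule 14.6% of the 6374 genes were higher at P28 and 10.3% lower, the background against which the count for each list is set. Low genes are understated by the added 1. A member that met the minimum in its higher library alone was selected in part by that level, so counts and medians over the members at the minimum are a description. Some of the lists, though not most, are also given over all of their members in the table, without the minimum. Below, FPKM stands for scaled FPKM, a pair such as "x to y" gives P7 and then P28, values in order of age run from E16.5 and E18.5 to P7 and then P28, and a number after log2 is the difference.

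Alveoli form when ridges of tissue, the secondary septa, grow into the saccules of the newborn lung. Septa carry alveolar myofibroblasts at their tips, Pdgfra-positive cells that make contractile actin and myosin and lay down elastin, and these cells are transient. The adult alveolar wall holds quieter fibroblasts, among them a Col13a1 type close to the alveolar epithelium and a Col14a1 type in the sheaths around airways and vessels, and lipid-storing lipofibroblasts. The lists of genes used below were drawn up for these cells, for the matrix they make, for the signals they send and receive, and for the other cells that a lung sort can hold.

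Both libraries carried the fibroblast genes named by the label. Pdgfra (chr5:75152292-75198215 on the plus strand, GRCm38) was at 77.3, 165, 81.9 and 174 scaled FPKM in order of age, so the P28 library was the higher of the 2 compared, log2 1.08. As deposited, without scaling, that difference was 0.73 and fell short of 2-fold. The general fibroblast list had 7 of 13 members higher and 1 lower, the lower one being Pdgfrb, the beta receptor that pericytes also carry. The ratio of Pdgfrb to Pdgfra within a library, which no scaling can move, was 0.0882, 0.0878, 0.273 and 0.0270 in order of age.

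The P28 library also held RNA of lung epithelium. Scgb1a1, the club cell secretoglobin, was its most abundant gene at 17848 scaled FPKM against 19.04 at P7. Sftpc, surfactant protein C of alveolar type 2 cells, was at 9406 against 11.3. Together with Lyz2, lysozyme 2, these genes took 15.7% of the summed FPKM at P28 and 0.0292% at P7. All 14 alveolar type 2 markers were higher at P28 and their summed level was 12680.3 against 27.6. All 9 airway and 9 general epithelial markers at the minimum were higher too, with the basal cell keratin Krt5 listed at 0 in both libraries. Without the minimum 10 of 12 airway and 10 of 10 general epithelial markers were higher. The levels of the general markers were far lower, as for Cdh1 at 33.9 and Epcam at 10.5, and their sum was 192 against 6.55. Of the mesothelial markers, 7 of 7 at the minimum and 7 of all 9 were higher at P28 (summed 209 against 57.7). The keratin Krt19 is on both the mesothelial and the general epithelial list.

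Endothelial RNA ran the other way. Of 16 endothelial markers 14 were lower at P28, with Cdh5, vascular endothelial cadherin, at 200.1 at P7 and 62.4 at P28, and the summed level was 973 at P7 and 299 at P28. Pericyte markers were lower in 5 of 7, with Rgs5 at 6.83 at P7 and 0.164 at P28, and higher in 1, Abcc9 (a potassium channel subunit) being at 3.302 at P7 and 8.22 at P28 and within 2-fold as deposited. Leukocyte markers were under 5 scaled FPKM in both libraries apart from Lyz2 (4692 at P28), with the pan-leukocyte gene Ptprc at 0.202 at P7 and 0.0911 at P28, Marco at 0 in both and S100a8 and Nkg7 at 0 at P28. Of the alveolar type 1 markers 4 of 8 were higher. Nerve and cartilage markers did not reach 5 scaled FPKM. Xist, expressed from the inactive X chromosome of females, was at 63.4 at P7 and 0.0495 at P28, while the Y-linked Ddx3y, Kdm5d, Uty and Eif2s3y were all listed at 0 at P7 and lay between 2.42 and 8.66 at P28. Age, sex and library thus cannot be told apart in this comparison, and the part of epithelial, endothelial or pericyte RNA in any difference below was not tested. In RNA from a bulk population, fewer cells of a type and less RNA per cell cannot be told apart either.

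**Figure D1:**
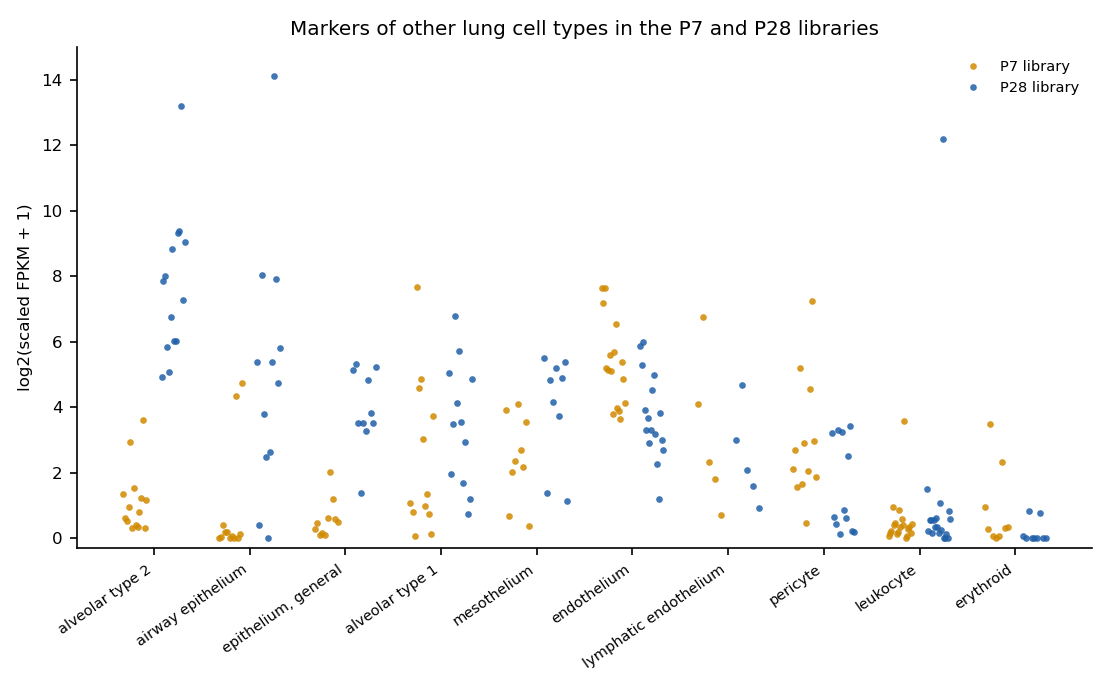
Level of each marker of 10 other cell types in the P7 library (orange) and the P28 library (blue), as log2(scaled FPKM + 1), with 1 point per gene. Alveolar type 2 and airway points are high at P28 and endothelial points at P7, while leukocyte points sit near 0 in both libraries except Lyz2.

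Of the 6374 genes, 932 were higher at P28 (14.6%) and 654 were lower (10.3%), and the median difference was -0.01. As deposited the split turned, with 747 higher and 1202 lower, and higher genes made 38.3% of the calls in place of 58.8%. At least 4-fold apart were 404 higher and 194 lower genes, and at least 16-fold apart were 87 and 20. Just inside the threshold were Gstz1 (3.75 to 8.51 FPKM) and Cdk4 (43.5 to 21.2), and just outside it Aldh6a1 (4.52 to 10.03) and Rpa3 (7.37 to 3.19). Ccdc127 met the minimum at 5.0003 FPKM at P7, and Nck2, at 4.998, did not.

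The 20 genes lower at P28 by the largest difference were led by Egfem1, an EGF-like and EMI domain protein, and P2ry14, a receptor for UDP-sugars. They also held Pdlim3, Prss35, Actg2, P4ha3, Myh11, Tgfbi, Mest, Agt, Ccdc3, Vsnl1, Acta2, Postn, Ltbp2, Lmcd1, Nes and H19, besides Xist and its antisense partner Tsix, whose reads an unstranded kit cannot separate. Agt, the precursor of angiotensin, was at 33.4 at P7 and 0.719 at P28 (log2 -4.32). Nes, the intermediate filament protein nestin, was at 83.6 at P7 and 5.49 at P28 (log2 -3.705), and Vsnl1, a calcium sensor, was at 41.5 at P7 and 1.26 at P28 (log2 -4.23). All of these but Xist and Tsix were also detected before birth, at 1.23 scaled FPKM or more at E16.5.

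Of the 20 genes with the largest positive difference, 9 are on the alveolar type 2 list and 3 on the airway list. They are Sftpc, Sftpa1, Sftpb, Slc34a2, Cxcl15, Lyz1, Chil1, Sftpd and Lamp3 with Scgb1a1, Scgb3a1 (listed at 0 at P7) and Cyp2f2. The rest were Inmt, Cbr2, Lyz2, Scd1, Hc, S100g, Aldh1a1 and Lcn2. Without every gene on a list for another cell type, 888 genes were higher and 632 lower. Among the 10 most abundant genes of either library, Sparc (1189.8 to 2146 FPKM, log2 0.85), a matrix glycoprotein, Vim, vimentin (583 to 302 FPKM, log2 -0.95), Actb, beta-actin (707 to 565 FPKM, log2 -0.32), Rpl10 (790.1 to 848 FPKM, log2 0.101) and Rpl41 (603 to 457 FPKM, log2 -0.399), both ribosomal, were within 2-fold, and the predicted gene Gm20594 was higher (623 to 1493 FPKM, log2 1.26). As deposited Vim was lower and Gm20594 within 2-fold. Some signalling genes given below as within 2-fold, Skil, Ghr and Kitl among them, were likewise lower as deposited.

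**Figure D2:**
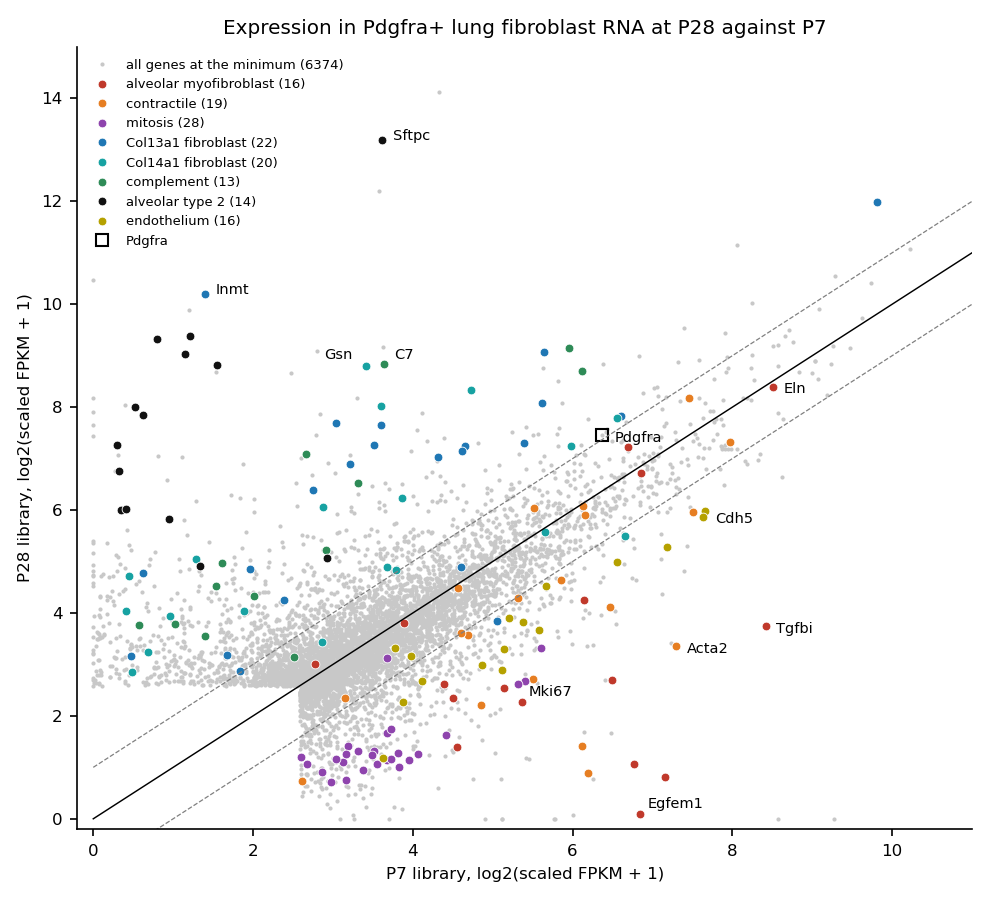
Each of the 6374 genes at its level in the P7 library (horizontal) and the P28 library (vertical), both as log2(scaled FPKM + 1), with the members of 8 lists in colour, a solid line of equal level and dashed lines at 2-fold. Most alveolar myofibroblast, contractile, mitosis and endothelial genes lie under the line, most Col13a1, Col14a1 and complement genes above it, and alveolar type 2 genes at the upper left.

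Genes of the alveolar myofibroblast made up the fibroblast list with the lowest median. Of 16 members at the minimum, 11 were lower and none higher, with a median log2 difference of -2.38, against 10.3% lower among all genes. Over all 18 members the median was -2.02. Egfem1 was at 18.1, 127, 114 and 0.0642 scaled FPKM in order of age (log2 -6.75). P2ry14 was at 14.65, 18.2, 142 and 0.762, so its P7 value was the highest of the 4 and its P28 value the lowest (log2 -6.34). Pdlim3, a PDZ and LIM protein of the actin cytoskeleton, was at 17.1, 101, 108 and 1.09 (log2 -5.701). Tgfbi, a secreted matrix protein induced by TGF-beta, was at 187, 541, 340.4 and 12.3 (log2 -4.68). In all 4 genes the P28 library lay below both fetal libraries as well as below P7.

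The other lower members were Ltbp2 (88.7 to 5.47 FPKM, log2 -3.79), Stc1 (22.5 to 1.63 FPKM, log2 -3.16), Fgf18 (40.4 to 3.796 FPKM, log2 -3.11), Wnt5a (34.2 to 4.82 FPKM, log2 -2.59), Aspn (21.8 to 4.11 FPKM, log2 -2.16), Loxl2 (69.6 to 18.2 FPKM, log2 -1.88) and Mustn1 (19.9 to 5.14 FPKM, log2 -1.77). They encode a latent TGF-beta binding protein, the hormone stanniocalcin 1, an FGF, a Wnt, the proteoglycan asporin, a lysyl oxidase-like enzyme and a small nuclear protein of muscle and skeleton. The members that did not reach 2-fold include the product these cells are best known for. Eln, elastin (chr5:134702593-134747323, minus strand), was at 60.97, 813, 364 and 337 in order of age (log2 -0.11). Cdh11 (cadherin 11, 115 to 104 FPKM, log2 -0.14), Enpp2 (autotaxin, 13.8 to 13.1 FPKM, log2 -0.07), Hhip (a hedgehog-binding protein, 5.87 to 7.06 FPKM, log2 0.23) and Igfbp5 (103 to 149.7 FPKM, log2 0.54) also lay within 2-fold. Eln and these 4 genes were thus not among the lower members.

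The contractile list was lower in 12 of 19 members and higher in none (median -1.12, and -1.01 over all 24 members). The smooth muscle isoforms differed most. Acta2, smooth muscle alpha-actin (chr19:34241090-34255590, minus strand), was at 146, 67.96, 156 and 9.22 scaled FPKM in order of age (log2 -3.95), with P28 the lowest library. Actg2, the gamma isoform, was at 43.1, 21.2, 71.9 and 0.863 (log2 -5.29), and Myh11, smooth muscle myosin heavy chain, was at 64.1, 88.1, 68.6 and 1.65 (log2 -4.71). Des (desmin, 44.5 to 5.61 FPKM, log2 -2.78), Tpm2 (a tropomyosin, 28.000 to 3.63 FPKM, log2 -2.65), Myl9 (a regulatory myosin light chain, 87.4 to 16.4 FPKM, log2 -2.35) and Synpo2 (synaptopodin 2, 5.098 to 0.654 FPKM, log2 -1.88) followed. Cald1 (caldesmon, 181 to 61.4 FPKM, log2 -1.55), Tgfb1i1 (56.7 to 23.96 FPKM, log2 -1.21), Tagln (transgelin, 24.9 to 10.9 FPKM, log2 -1.12), Actn1 (alpha-actinin, 38.9 to 18.6 FPKM, log2 -1.02) and Smtn (smoothelin, 23.4 to 11.2 FPKM, log2 -1.003) were lower by less.

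Cnn1 was under the minimum with a log2 difference of -2.06, and without the minimum 13 of all 24 members were lower. The other members at the minimum did not reach 2-fold. Tpm1 (249 to 159.9 FPKM, log2 -0.63), Flna (filamin A, 70.2 to 58.8 FPKM, log2 -0.25), Mylk (myosin light chain kinase, 68.98 to 66.7 FPKM, log2 -0.05), Vcl (vinculin, 44.7 to 64.99 FPKM, log2 0.53) and Csrp1 (175 to 288 FPKM, log2 0.71) are among them. The ratio of Acta2 to the cytoplasmic actin Actb within a library was 0.132, 0.0702, 0.221 and 0.0163 in order of age. Myocardin (Myocd), the coactivator of serum response factor in smooth muscle, was under the minimum at 10.5, 7.78, 3.87 and 0.329. Serum response factor itself (Srf, 6.13 to 4.86 FPKM, log2 -0.28) and its coactivator Mkl2 (18.9 to 15.97 FPKM, log2 -0.23) stayed within 2-fold. Pericytes and smooth muscle also express contractile genes, and the pericyte markers were lower in 5 of 7, with a summed level of 239 at P7 and 42.7 at P28, whose part in these differences was not tested.

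Serum response factor binds the CArG box, and the 250 bases before each start site were searched for it on both strands in RefSeq promoters (GRCm38.p6). Of 24 contractile genes 18 had such a window, 20 windows in all, and 2 windows (10%) held a CArG box against 1.47% of all 32851 windows. One is that of Myl9, which was lower at P28, and the other that of Vcl, which was not. Both are shown 5′ to 3′ on the plus strand with the box in capitals, Myl9 at chr2:156775214-156775463 and Vcl at chr14:20929148-20929397. A match is a description of the letters. Only an exact box of CC, a run of A or T bases and GG was counted. Boxes with a changed base or farther from the start were not searched.
Myl9: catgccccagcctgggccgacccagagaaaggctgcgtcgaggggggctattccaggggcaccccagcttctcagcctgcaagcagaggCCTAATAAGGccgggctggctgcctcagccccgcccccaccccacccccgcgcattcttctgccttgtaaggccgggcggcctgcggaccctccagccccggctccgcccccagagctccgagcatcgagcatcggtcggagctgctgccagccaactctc
Vcl: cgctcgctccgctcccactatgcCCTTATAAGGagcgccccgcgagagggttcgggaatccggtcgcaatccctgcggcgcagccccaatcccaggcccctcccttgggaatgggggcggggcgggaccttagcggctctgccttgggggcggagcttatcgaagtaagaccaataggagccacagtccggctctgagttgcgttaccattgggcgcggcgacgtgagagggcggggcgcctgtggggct

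Most genes of the adult alveolar and adventitial fibroblast lists were higher at P28. The Col13a1 list was higher in 20 of 22 members and lower in 1 (median 2.65, every member meeting the minimum), where 14.6% of all genes were higher. Inmt, an indolethylamine methyltransferase (chr6:55170626-55175043, minus strand), was at 0.148, 1.83, 1.65 and 1178 scaled FPKM in order of age (log2 8.799), under 2 FPKM at the 3 earlier ages and among the 10 most abundant genes at P28. Npnt, nephronectin, a basement membrane ligand, was at 13.8, 15.7, 48.7 and 536 (log2 3.43). Its receptor subunit Itga8 was at 7.99, 8.19, 8.26 and 118 (log2 3.69), level over the 3 earlier libraries and higher at P28. Tcf21, a transcription factor of lung mesenchyme and lipofibroblasts, was at 30.1, 88.8, 18.8 and 130.3 (log2 2.73), so P7 was its lowest library.

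Mettl7a1 (7.24 to 207 FPKM, log2 4.66), the chemokine Cxcl14 (0.539 to 26.6 FPKM, log2 4.16), cysteine dioxygenase Cdo1 (11.1 to 202 FPKM, log2 4.06), the secreted protein Scube2 (10.4 to 152 FPKM, log2 3.75) and the carboxylesterase Ces1d (5.73 to 83.3 FPKM, log2 3.65) were among the members with the largest differences. Figf, the vascular growth factor VEGF-D, was at 28.3, 38.2, 23.5 and 141 (log2 2.53). Mfap4, a microfibril glycoprotein and the most abundant member, was at 593, 1421, 894 and 4078 (log2 2.19). Col13a1 itself, a transmembrane collagen, was higher as well (2.19 to 8.05 FPKM, log2 1.503). Tbx5, a T-box factor of lung mesenchyme, was the lower member (42.5, 48.2, 32.3 and 13.4, log2 -1.21), and Cyp4b1 (23.3 to 28.8 FPKM, log2 0.296) did not reach 2-fold.

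The Col14a1 list was higher in 17 of 20 members and lower in 1 (median 2.47, and 2.38 over all 22 members). Gsn, gelsolin, which severs actin filaments (chr2:35256380-35307892, plus strand), was at 5.98, 15.5, 9.68 and 447 (log2 5.39). Pcolce2, an enhancer of procollagen cleavage, was at 1.74, 2.06, 11.1 and 259.5 (log2 4.43). Dcn, the small proteoglycan decorin, was at 55.1, 62.3, 25.6 and 323 (log2 3.603). Pi16 (0.36 to 25.3 FPKM, log2 4.27), the alarmin Il33 (1.43 to 32.3 FPKM, log2 3.78), the scavenger receptor Scara5 (0.332 to 15.3 FPKM, log2 3.62) and Serpinf1 (6.33 to 65.9 FPKM, log2 3.19) were also higher, as was Col14a1 itself (12.9 to 27.5 FPKM, log2 1.04). As deposited, Col14a1 and Dpt did not reach 2-fold and 13 of 21 members were higher. Cd34, a surface sialomucin that endothelium also carries, was the lower member (8.404, 13.4, 99.9 and 44.1, log2 -1.16).

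Lipofibroblast genes differed by less, with 6 of 12 higher and none lower (median 0.98), and over all 17 members 7 were higher and 1 lower (median 0.79). Apoe was at 65.01, 62.7, 8.26 and 134 in order of age (log2 3.87), Plin2, the lipid droplet coat protein, at 19.04, 8.16, 8.31 and 23.5 (log2 1.39), and Lrat, which esterifies retinol for storage, at 0.0911, 0.274, 0.0604 and 14.2 (log2 3.84). Fabp5, a fatty acid binding protein, was at 7.63, 4.35, 1.502 and 22.04 (log2 3.203). Pparg, the nuclear receptor of lipid storage, stayed under the minimum at 0.388 at P7 and 1.16 at P28. Surfactant-making epithelium also stores lipid, and the level of its markers at P28 is given above.

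**Figure D3:**
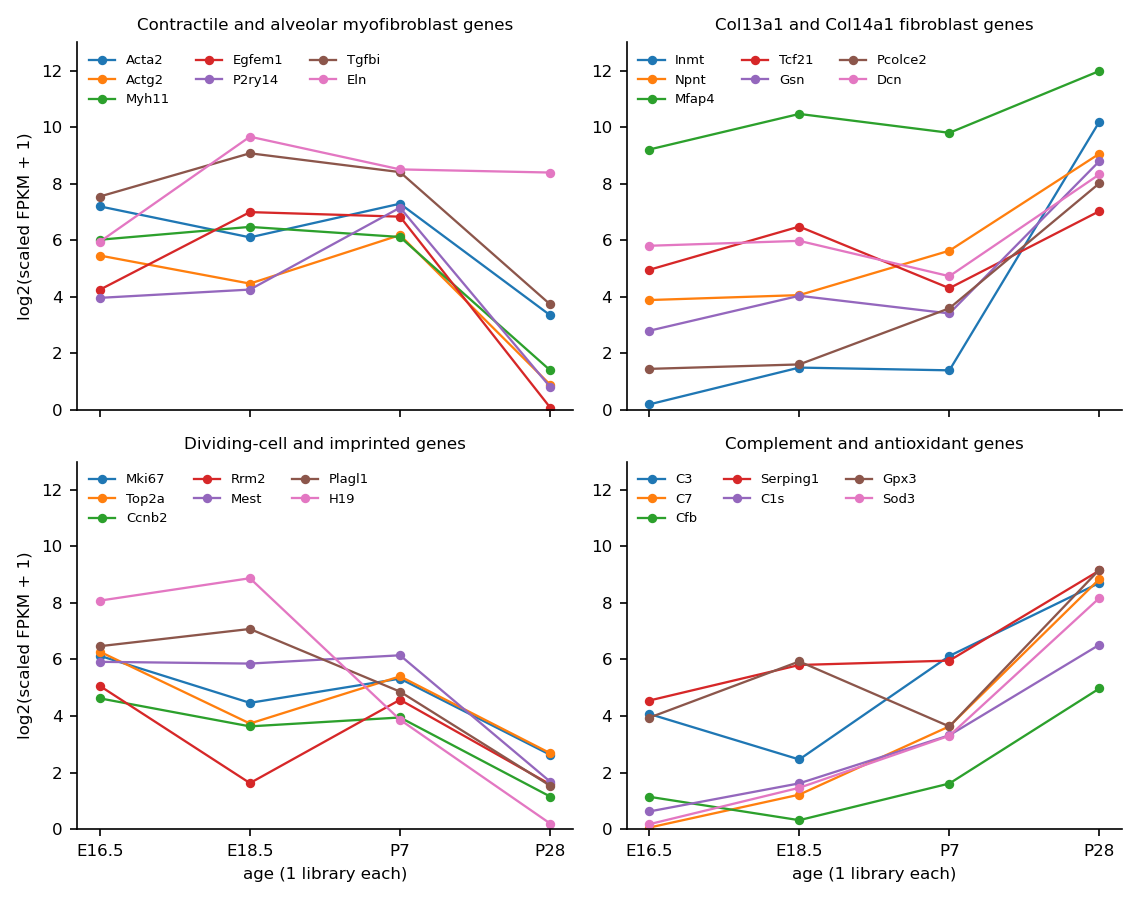
Level of 28 genes in the 4 libraries in order of age, as log2(scaled FPKM + 1), with 1 point per library and lines that only join the points. Myofibroblast and contractile genes other than Eln are lowest at P28, the adult fibroblast, complement and antioxidant genes are highest there, and dividing-cell genes are lower at E18.5 and P28 than at E16.5 and P7.

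Genes of the elastic fibre lay on both sides, with 7 of 20 higher, 4 lower and a median of -0.06 (-0.05 over all 23 members). The lower members were Ltbp2 (12.6, 71.8, 88.7 and 5.47 in order of age, log2 -3.79), Fbn2, the fibrillin of developing tissue (28.3, 25.4, 10.2 and 0.404, log2 -2.99), Fbln2 (25.3 to 6.12 FPKM, log2 -1.89) and Loxl2. Fbn1, the adult fibrillin, was at 81.5, 140.4, 125 and 171 (log2 0.45). The higher members were Efemp1 (5.66 to 102 FPKM, log2 3.94), Mfap5 (13.5 to 74.7 FPKM, log2 2.38), Mfap4, Ltbp4 (54.8 to 176 FPKM, log2 1.67), Ltbp1 (11.2 to 32.8 FPKM, log2 1.47), and the crosslinking enzymes Loxl1 (11.5 to 33.5 FPKM, log2 1.46) and Lox (11.4 to 32.05 FPKM, log2 1.42). Among elastin crosslinkers Loxl2 was therefore lower and Lox and Loxl1 were higher, all by more than 2-fold. The elastin level per length, against the summed Col1a1, Col1a2 and Col3a1, was 0.0706, 0.901, 0.297 and 0.163 in order of age.

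The main chains of collagens I and III did not reach 2-fold. Col3a1 was at 332, 322, 543 and 958 (log2 0.82), Col1a2 at 294, 319, 379 and 590.3 (log2 0.64) and Col1a1 at 237, 261, 303 and 515 (log2 0.76). Of the 12 collagens at the minimum 5 were higher and 2 lower (median 0.79, and 0.58 over all 20 members). The higher ones were the 3 type VI chains Col6a1 (39.3 to 135 FPKM, log2 1.75), Col6a2 (84.7 to 183 FPKM, log2 1.104) and Col6a3 (35.9 to 74.3 FPKM, log2 1.03), with Col14a1 and the transmembrane Col23a1 (2.42 to 20.8 FPKM, log2 2.67). Col12a1 (10.6 to 3.74 FPKM, log2 -1.296) and Col27a1 (7.44 to 3.15 FPKM, log2 -1.02) were lower. As deposited 2 were higher and 2 lower, as Col6a2, Col6a3 and Col14a1 then missed 2-fold.

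The enzymes that process collagen were called higher or lower about as often as all genes. P4ha3, a catalytic subunit of prolyl 4-hydroxylase, was at 41.3, 39.8, 88.3 and 2.196 (log2 -4.804), while its paralogs P4ha1 (2.65 to 10.6 FPKM, log2 1.67) and P4ha2 (2.42 to 7.23 FPKM, log2 1.27) were higher and their shared beta subunit P4hb was level (126 to 123 FPKM, log2 -0.04). The procollagen C-proteinase enhancers Pcolce (27.1 to 157 FPKM, log2 2.497) and Pcolce2 were higher, and the proteinase they serve, Bmp1, was within 2-fold (14.8 to 10.5 FPKM, log2 -0.47). Leprel1, a prolyl 3-hydroxylase, was lower (8.57 to 2.95 FPKM, log2 -1.28). The list had 4 of 22 higher and 2 lower, with a median of 0.21 scaled and -0.13 as deposited, against 14.6% higher and 10.3% lower among all genes.

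Proteoglycans, which bind growth factors and space collagen fibrils, included several higher small leucine-rich members. Of 17 proteoglycans at the minimum 8 were higher and 4 lower (median 0.87, and 0.31 over all 24 members). Higher were Dcn, Ogn (osteoglycin, 15.6 to 188 FPKM, log2 3.51), Prelp (48.4 to 435 FPKM, log2 3.14), Lum (lumican, 2.01 to 11.4 FPKM, log2 2.05), Podn (podocan, 16.4 to 46.6 FPKM, log2 1.45), the glypican Gpc3 (41.1 to 156 FPKM, log2 1.900) and the syndecans Sdc4 (13.6 to 90.3 FPKM, log2 2.65) and Sdc1 (2.95 to 9.38 FPKM, log2 1.39). Lower were the glypican Gpc4 (33.1 to 3.41 FPKM, log2 -2.95), Aspn, the syndecan Sdc3 (10.2 to 2.56 FPKM, log2 -1.66) and the large proteoglycan versican, Vcan (22.3 to 7.84 FPKM, log2 -1.39). Bgn, biglycan, was the most abundant and within 2-fold (417 to 727 FPKM, log2 0.799), and the ratio of Dcn to Bgn within a library was 0.254, 0.103, 0.0614 and 0.444 in order of age.

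Matricellular proteins sit in the matrix and signal to cells. Postn, periostin, was at 29.4, 103, 149 and 9.71 in order of age (log2 -3.81), Tnc, tenascin C, at 40.3, 96.7, 139 and 19.7 (log2 -2.75), and Thbs2, thrombospondin 2, at 8.57, 9.31, 11.6 and 0.938 (log2 -2.703). With Tgfbi and Wisp1 (8.52 to 1.19 FPKM, log2 -2.12) these made 5 lower genes of 15. The 4 higher ones were Fn1, fibronectin (129 to 330.4 FPKM, log2 1.35), Sparcl1 (134 to 298 FPKM, log2 1.15), Tnxb, tenascin X (1.07 to 9.66 FPKM, log2 2.37), and Wisp2 (0.7 to 21.9 FPKM, log2 3.75). The list's median was 0.23 scaled and -0.08 as deposited, and 6 of all 24 members were higher without the minimum. Postn is also on the pericyte list.

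**Figure D4:**
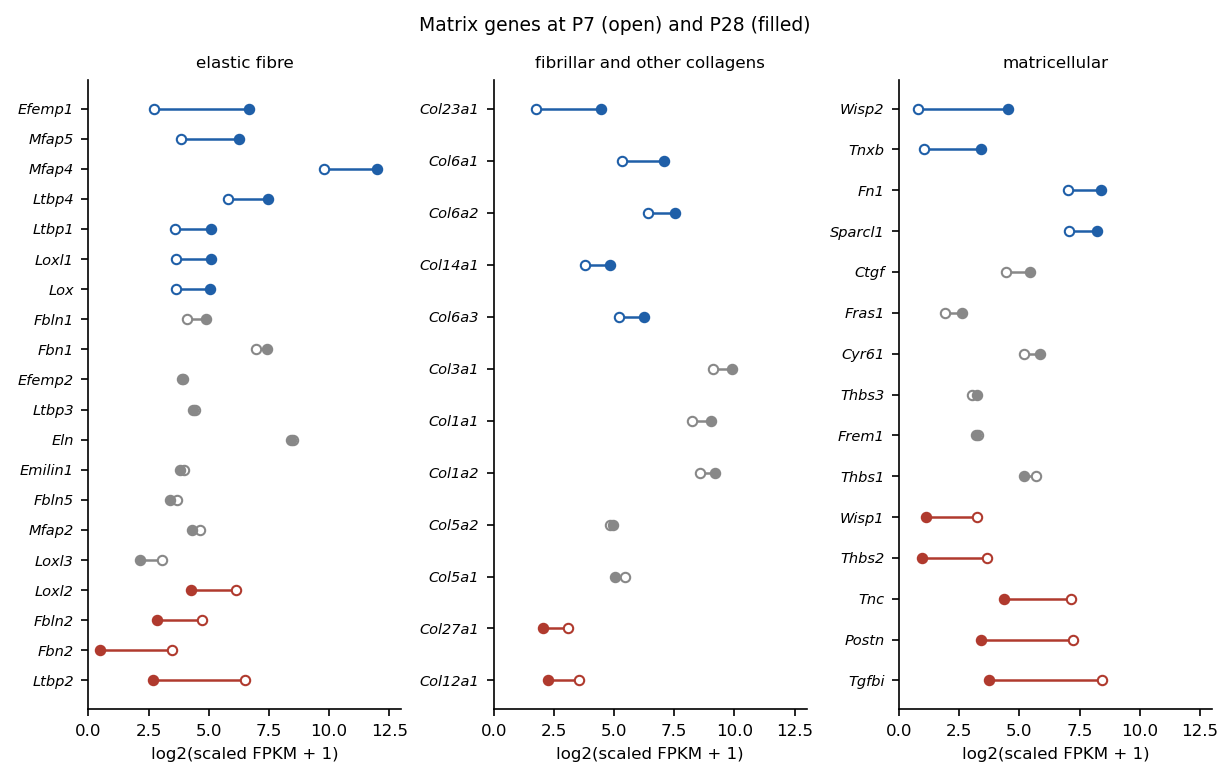
Level of each elastic fibre, collagen and matricellular gene at the minimum in the P7 library (open circle) and the P28 library (filled circle), as log2(scaled FPKM + 1), with genes at least 2-fold higher at P28 in blue, lower in red and the rest in grey. Eln lies among the genes with the smallest difference, Efemp1 and Ltbp2 are at the ends of the elastic fibre panel, and Tgfbi and Postn at the foot of the matricellular panel.

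The basement membrane list had 5 of 17 members higher and 2 lower (median 0.34), the lower share being near that of all genes. Without the minimum 11 of 24 were higher and 2 lower, and as deposited, under upper-quartile scaling and under scaling from P7 and P28 alone 4 were lower. Besides the genes below, Npnt, Lama2 (a laminin chain, 14.4 to 40.4 FPKM, log2 1.43) and Col18a1 (2.04 to 7.04 FPKM, log2 1.41) were higher and Nid2 (nidogen 2, 8.63 to 2.43 FPKM, log2 -1.49) lower. The common type IV chains were at lower levels at P28, Col4a1 (144 to 61.3 FPKM, log2 -1.22) and Col4a2 (157 to 78.8 FPKM, log2 -0.98), of which Col4a1 passed 2-fold. The chains of the alternative type IV network were higher, Col4a3 (1.02 to 7.58 FPKM, log2 2.09) and Col4a5 (1.91 to 19.9 FPKM, log2 2.84). The summed ratio of Col4a1 and Col4a2 to Col4a3, Col4a4 and Col4a5 within a library was 28.0, 33.4, 83.3 and 4.66 in order of age. Endothelium makes Col4a1 and Col4a2, alveolar epithelium makes the Col4a3 network, and the markers of both cell types differed as given above, whose part was not tested.

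Timps inhibit the metalloproteinases that remodel matrix, and 10 of 22 genes of the list for both were higher and 2 lower (median 0.95, and 0.36 over all 32 members). Timp3 was (56.1 to 193 FPKM, log2 1.77), Timp2 (101 to 209.6 FPKM, log2 1.05) and Timp1 (2.28 to 6.44 FPKM, log2 1.18), of which Timp2 missed 2-fold as deposited. The gelatinase Mmp2 (48.9 to 131 FPKM, log2 1.402), Adamts15 (5.13 to 44.9 FPKM, log2 2.905) and Adamts17 (15.01 to 48.9 FPKM, log2 1.64) were higher. The disintegrins Adam12 (15.02 to 1.66 FPKM, log2 -2.59) and Adam19 (47.6 to 18.5 FPKM, log2 -1.32) were the lower members, and Mmp14, which activates Mmp2, was within 2-fold (48.4 to 33.3 FPKM, log2 -0.52).

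Genes of cell division were lower at P28 with 1 exception among those at the minimum. Of 28 mitosis genes at the minimum 27 were lower and none higher (median -2.27), and all 15 DNA replication genes at the minimum were lower (median -1.83). Over all members 31 of 32 mitosis genes (median -2.22) and 24 of 34 DNA replication genes (median -1.24) were lower. Mki67, the antigen Ki-67 of cycling cells, was at 69.01, 21.1, 38.98 and 5.18 in order of age (log2 -2.69). Top2a, topoisomerase II alpha, was at 76.4, 12.3, 41.3 and 5.43 (log2 -2.72), and Ccnb2, a mitotic cyclin, at 23.7, 11.4, 14.4 and 1.22 (log2 -2.796). Rrm2, the small subunit of ribonucleotide reductase, was at 32.5, 2.09, 22.8 and 1.99 (log2 -2.99), and Aurkb, a mitotic kinase, at 18.1, 2.14, 13.2 and 1.02 (log2 -2.82). The summed level of the 32 mitosis genes was 694, 135, 401 and 61.9 in order of age, so P7 stood between the fetal libraries and P28 below both. Bub3, a checkpoint gene, was within 2-fold (11.8 to 7.78 FPKM, log2 -0.55). Cycling cells of any type carry these genes, and the P7 library held the endothelial markers at the levels given above.

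Regulators of the cell cycle outside mitosis showed 4 of 17 higher and 5 lower. E2f8, a repressor of cell cycle genes, had the largest difference among the lower ones (5.84 to 0.634 FPKM, log2 -2.07). The cyclins Ccnd1 (37.7 to 17.2 FPKM, log2 -1.09) and Ccnd2 (30.3 to 9.74 FPKM, log2 -1.54) and the kinases Cdk4 (43.5 to 21.2 FPKM, log2 -1.001) and Cdk6 (25.8 to 10.7 FPKM, log2 -1.202) were lower. The inhibitor Cdkn1a, p21, was higher (16.7, 37.8, 5.38 and 23.3, log2 1.93), as were Btg2 (12.97 to 39.99 FPKM, log2 1.55), Gadd45b (1.198 to 12.9 FPKM, log2 2.66) and Gadd45g (1.21 to 6.13 FPKM, log2 1.69). Cdkn1c, p57, was within 2-fold (15.9 to 9.97 FPKM, log2 -0.63) and Cdkn2a was listed at 0 in both libraries. Btg2, Cdkn1a and the Gadd45 genes also respond to stress, whose part was not tested. Btg2 is itself on the immediate early list, of which 8 of 19 genes were higher at P28.

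Promoters of mitotic genes are known for CCAAT boxes and for the cell cycle homology region, whose core is TTTGAA. Of 32 genes on the mitosis list 28 had a RefSeq window of 250 bases before the start, 31 windows in all. CCAAT was in 26 windows (83.9%) against 33.8% of all windows, and TTTGAA was in 14 (45.2%) against 15.99%, both counted on either strand. Both motifs were in 12 windows (38.7%) against 5.55% of all, and their matches did not overlap. The 3 members with both motifs and the largest differences, Kif11 (chr19:37376132-37376381, plus strand), Ccnb2 (chr9:70421555-70421804, minus strand) and Top2a (chr11:99024190-99024439, minus strand), are shown 5′ to 3′ along the gene with every match in capitals. Kif11, a mitotic kinesin, was lower like the others (15.8 to 1.38 FPKM, log2 -2.82).
Kif11: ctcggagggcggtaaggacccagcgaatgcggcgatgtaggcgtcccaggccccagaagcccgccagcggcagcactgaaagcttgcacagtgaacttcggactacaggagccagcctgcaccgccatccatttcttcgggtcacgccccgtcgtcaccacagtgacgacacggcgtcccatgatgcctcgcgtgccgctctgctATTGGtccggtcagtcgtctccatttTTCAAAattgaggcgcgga
Ccnb2: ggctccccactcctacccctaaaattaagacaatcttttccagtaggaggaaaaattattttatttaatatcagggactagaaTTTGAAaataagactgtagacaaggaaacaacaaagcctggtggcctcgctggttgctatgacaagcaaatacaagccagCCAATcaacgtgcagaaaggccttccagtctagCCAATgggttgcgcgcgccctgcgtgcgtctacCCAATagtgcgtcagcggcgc
Top2a: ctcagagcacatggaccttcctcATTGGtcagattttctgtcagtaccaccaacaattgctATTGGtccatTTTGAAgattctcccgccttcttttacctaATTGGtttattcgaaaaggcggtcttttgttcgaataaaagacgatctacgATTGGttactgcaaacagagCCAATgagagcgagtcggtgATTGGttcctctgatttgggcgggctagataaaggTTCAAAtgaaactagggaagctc

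Imprinted genes that act on growth were lower in 7 of 12 and higher in none (median -1.20), and over all 18 members 7 were lower and the median was -0.43. Mest (chr6:30723547-30748465, plus strand) was at 59.4, 56.8, 69.9 and 2.202 in order of age (log2 -4.47), level until P7. H19, a long noncoding RNA, was at 269.6, 468, 13.6 and 0.146 (log2 -3.67), and its neighbour Igf2, a growth factor, at 87.03, 147, 11.7 and 3.86 (log2 -1.38), so both were already far below their fetal level at P7. Plagl1, a zinc finger gene, was at 87.6, 134, 28.1 and 1.896 (log2 -3.33), and Grb10, an adaptor that restrains insulin signalling, at 163, 127, 98.9 and 30.1 (log2 -1.68). Peg10 (7.19 to 0.945 FPKM, log2 -2.07) and Peg3 (50.9 to 24.7 FPKM, log2 -1.01) were lower too, and Gnas, the most abundant member, was level (614 to 579.9 FPKM, log2 -0.08). Of the fetal chromatin and RNA-binding genes 10 of 13 at the minimum, and 10 of all 21, were lower, among them Hmgb2 (16.1 to 2.59 FPKM, log2 -2.25), Sox11 (12.01 to 0.993 FPKM, log2 -2.71), Ezh2 (15.7 to 4.304 FPKM, log2 -1.65) and Dnmt1 (17.9 to 5.53 FPKM, log2 -1.53). Hmgb2, Ezh2 and Dnmt1 are also raised in cycling cells.

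Signalling genes were read as ligands, receptors and targets. In the hedgehog list 4 of 9 genes were lower and 2 higher (median -0.51, and -0.11 over all 14 members). The ligand Shh was under the minimum in both libraries (0.0364 at P7 and 0.497 at P28). Ptch1, the receptor and a target of the pathway, was at 52.8, 33.2, 37.2 and 15.9 (log2 -1.18), the factor Gli3 (5.57 to 1.901 FPKM, log2 -1.18), and the mesenchymal targets Foxf1 at 30.05, 30.02, 91.3 and 15.4 (log2 -2.49) and Foxf2 (43.7 to 12.7 FPKM, log2 -1.702). Foxf1 is also an endothelial gene. Hhip, the hedgehog-binding protein given above, was within 2-fold. The coreceptors Gas1 (7.25 to 33.1 FPKM, log2 2.05) and Cdon (1.98 to 6.85 FPKM, log2 1.398) were higher, Boc (6.59 to 12.8 FPKM, log2 0.86) and the signal transducer Smo (23.3 to 16.1 FPKM, log2 -0.51) were within 2-fold, and the direct target Gli1 was under the minimum (2.59 at P7 and 1.58 at P28).

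In the Wnt list 7 of 21 genes were lower and 4 higher (median -0.70). Over all 39 members 8 were lower and 6 higher, and the median was -0.05. Among ligands Wnt5a, of the noncanonical branch, was lower and Wnt2 was higher (2.56 to 6.29 FPKM, log2 1.03). The nuclear factors Lef1 (14.5, 9.17, 8.51 and 0.0561 in order of age, log2 -3.17) and Tcf7 (34.5, 17.6, 24.2 and 3.14, log2 -2.604) were lower, with Lef1 near 0 only at P28. The R-spondin receptor Lgr6 (7.12 to 0.636 FPKM, log2 -2.31), the Wnt5a receptor Ror1 (8.38 to 1.696 FPKM, log2 -1.798), the antagonist Wif1 (5.23 to 0.676 FPKM, log2 -1.895) and Fzd6 (5.45 to 1.82 FPKM, log2 -1.19) were lower as well. Sfrp1, an antagonist (2.098 to 10.4 FPKM, log2 1.87), Fzd7 (14.3 to 32.9 FPKM, log2 1.15) and Rspo1 (5.41 to 12.3 FPKM, log2 1.05) were higher, Rspo1 being on the mesothelial list too. The feedback target Axin2 was within 2-fold (6.79 to 10.5 FPKM, log2 0.56). The remaining genes at the minimum, the receptors Fzd1, Fzd2, Fzd4, Lrp5 and Lrp6 with Tcf7l1, Nkd1, Sfrp2 and Dkk3, were within 2-fold, from Fzd2 (log2 -0.83) to Lrp6 (log2 0.66). As deposited 12 of 22 were lower and 1 higher, Fzd7, Rspo1 and Wnt2 missing 2-fold.

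TGF-beta genes differed little, with 2 of 19 lower and 1 higher. The ligand Tgfb2 was at 10.7, 12.3, 30.6 and 6.54 in order of age (log2 -2.07), while Tgfb1 (6.596 to 3.105 FPKM, log2 -0.89) and Tgfb3 (24.3 to 18.1 FPKM, log2 -0.41) and the receptors Tgfbr1 (5.81 to 7.903 FPKM, log2 0.39) and Tgfbr2 (31.8 to 56.3 FPKM, log2 0.81) were within 2-fold. Fstl1 was the other lower gene (229.7 to 109.7 FPKM, log2 -1.06), and as deposited 5 were lower. The higher gene was Ltbp1, and the shares are at or under those of all genes. The receptors Tgfbr3, Acvr1 and Acvr2a, the transducers Smad2, Smad3, Smad4 and Smad7, and Ski, Skil, Tgif1, Ltbp3 and Lrrc32 were within 2-fold, from Skil (log2 -0.87) to Acvr2a (log2 0.61). In the BMP list 5 of 19 genes were higher and 3 lower. The ligand Bmp3 was at 2.87, 3.54, 7.13 and 104 (log2 3.69), highest at P28, and Bmp5 at 26.3, 26.4, 29.5 and 79.9 (log2 1.41). The antagonist Chrdl1 (0.222 to 6.49 FPKM, log2 2.62) and the modulators Bmper (8.54 to 23.7 FPKM, log2 1.38) and Twsg1 (39.1 to 92.6 FPKM, log2 1.22) were higher. Bmp2 (9.91 to 1.52 FPKM, log2 -2.12) and 2 genes also active in endothelium, Eng (48.4 to 16.9 FPKM, log2 -1.46) and Smad6 (19.3 to 7.24 FPKM, log2 -1.304), were lower, while the targets Id1 (18.1 to 14.3 FPKM, log2 -0.32) and Id3 (64.6 to 51.1 FPKM, log2 -0.33) were within 2-fold. So were the ligands Bmp4 and Bmp6, the receptors Bmpr1a, Bmpr2 and Acvrl1, and Smad1, Smad5 and Id2, from Bmp6 (log2 -0.87) to Bmpr1a (log2 0.31). As deposited 4 BMP genes were higher and 6 lower.

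FGF ligands differed in both directions. Fgf18 was at 34.2, 25.9, 40.4 and 3.796 in order of age (log2 -3.11), lowest at P28. Fgf7, which acts on epithelium, was at 10.5, 14.7, 6.88 and 35.5 (log2 2.21), Fgf2 at 2.18, 12.5, 4.83 and 21.6 (log2 1.95), Fgf1 at 0.349, 1.46, 5.83 and 20.7 (log2 1.67) and Fgf10 at 2.42, 3.89, 1.401 and 5.11 (log2 1.35), each highest at P28. The receptors Fgfr4 (4.22 to 18.1 FPKM, log2 1.87), Fgfr2 (11.01 to 36.8 FPKM, log2 1.65) and Fgfr3 (3.27 to 9.05 FPKM, log2 1.23) were higher and Fgfr1 (13.3 to 21.2 FPKM, log2 0.64) was within 2-fold. Of the pathway's targets Etv1 (36.7 to 8.22 FPKM, log2 -2.03), Spry4 (21.2 to 9.35 FPKM, log2 -1.098) and Spry1 (36.6 to 17.6 FPKM, log2 -1.01) were lower and Etv5 was higher (6.59 to 32.4 FPKM, log2 2.14). The list had 8 of 17 genes higher and 4 lower, and Etv5 is also an alveolar type 2 marker. As deposited 7 were higher, Fgfr3 missing 2-fold. Spry2, Spred1, Spred2 and Dusp6, which restrain the pathway, were within 2-fold, from Spred1 (log2 -0.45) to Spry2 (log2 0.79).

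Among PDGF and VEGF genes 3 of 13 were higher, namely Pdgfra, Figf and Vegfa (12.3 to 27.8 FPKM, log2 1.11). Vegfa is also an alveolar type 1 marker, and without genes on lists for other cell types 2 were higher and 3 lower. The ligand of Pdgfra, Pdgfa, was within 2-fold (11.7 to 14.2 FPKM, log2 0.25). Vegfb (log2 0.16) and the coreceptors Nrp1 (log2 0.04) and Nrp2 (log2 0.98) were within 2-fold too. The 6 lower genes were Pdgfrb (22.4 to 4.698 FPKM, log2 -2.04), Pdgfb (13.04 to 3.99 FPKM, log2 -1.49), Vegfc (8.51 to 3.01 FPKM, log2 -1.25) and the endothelial receptors Flt1 (14.9 to 5.46 FPKM, log2 -1.296), Kdr (49.9 to 21.9 FPKM, log2 -1.15) and Flt4 (16.3 to 6.97 FPKM, log2 -1.12). The 4 lower Notch genes of 10, Nrarp (6.96 to 0.809 FPKM, log2 -2.14), Mfng (15.1 to 3.11 FPKM, log2 -1.97), Notch4 (6.54 to 1.87 FPKM, log2 -1.396) and Dll4 (6.08 to 1.92 FPKM, log2 -1.28), lay beside the lower endothelial markers, and Notch2 was within 2-fold (6.88 to 13.4 FPKM, log2 0.87). Notch1, Hes1, Hey1, Heyl and Maml2 were as well, from Hes1 (log2 -0.92) to Heyl (log2 0.64). As deposited 1 PDGF or VEGF gene, Figf, was higher. Of factors sent to epithelium and vessels, Angpt1 (5.75 to 21.2 FPKM, log2 1.72), Hgf (3.496 to 10.1 FPKM, log2 1.299) and Csf1 (6.84 to 16.8 FPKM, log2 1.19) were higher and the chemokine Cxcl12 was lower (49.8 to 21.1 FPKM, log2 -1.201). Ccl11, which draws eosinophils, was higher (2.68 to 15.5 FPKM, log2 2.16). Ackr3, a scavenger receptor for Cxcl12, was lower (18.8 to 4.63 FPKM, log2 -1.81), and Kitl was within 2-fold (log2 -0.69).

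In the IGF list Igf1 was level from P7 (114, 152, 49.4 and 46.8 in order of age, log2 -0.07) and the binding proteins Igfbp3 (3.04 to 61.6 FPKM, log2 3.95), Igfbp6 (2.39 to 24.7 FPKM, log2 2.92) and Igfbp7 (302 to 1041 FPKM, log2 1.78) were higher. Stc1 and Pappa2 (9.03 to 0.579 FPKM, log2 -2.67), which act on the proteolysis of binding proteins, were lower with Igf2. Igf1r, Igf2r, Insr, Ghr and Igfbp4 were within 2-fold, from Ghr (log2 -0.68) to Insr (log2 0.36). Retinoid genes were higher in 6 of 11 at the minimum (7 of all 21) and lower in 1. The retinal dehydrogenases Aldh1a1 (7.18, 50.9, 5.96 and 546 in order of age, log2 6.295) and Aldh1a2 (2.004, 3.46, 13.9 and 44.2, log2 1.601), Dhrs3 (9.96 to 44.97 FPKM, log2 2.07) and Rbp4 (0.951 to 14.4 FPKM, log2 2.98) were higher and the retinol dehydrogenase Rdh10 was lower (9.54 to 3.38 FPKM, log2 -1.27). Aldh1a2 is also on the mesothelial list.

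Transcription factors of lung mesenchyme were lower in 15 of 29 and higher in 2 (median -1.01, and -0.52 over all 47 members). Besides Foxf1, Foxf2 and Sox11 the lower ones with the largest differences were Hoxb5 (18.1, 11.4, 32.9 and 7.397 in order of age, log2 -2.01), Tbx3 (29.05, 48.2, 44.6 and 10.5, log2 -1.99), Meox1 (10.8 to 2.12 FPKM, log2 -1.92) and Sox4 (16.03 to 3.67 FPKM, log2 -1.87). The Hox genes, which set position along the body axis, include Hoxb3 (9.96 to 2.76 FPKM, log2 -1.54), Hoxb4 (5.06 to 1.87 FPKM, log2 -1.08), Hoxa2 (10.5 to 4.12 FPKM, log2 -1.16) and Hoxa5 (19.9 to 8.98 FPKM, log2 -1.07), lower like Hoxb5, while Hoxa3, Hoxa4, Hoxb2 and Hoxb6 were under the minimum. The T-box factors Tbx4 (55.9 to 32.5 FPKM, log2 -0.76) and Tbx2 (21.9 to 14.97 FPKM, log2 -0.52) were within 2-fold. Tcf21 and Osr1 (4.47 to 14.7 FPKM, log2 1.52) were the higher ones. Levels of factors such as Gata6 (5.51 to 5.83 FPKM, log2 0.07) and Meox2 (17.1 to 20.4 FPKM, log2 0.24) were within 2-fold. As deposited 20 of 33 were lower, Tbx4, Snai2 and Runx1 among them. Fendrr, the long noncoding RNA beside Foxf1, was lower too (21.3 to 3.46 FPKM, log2 -2.32) and was chosen after its value was seen.

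Complement proteins tag and lyse microbes, and their genes were higher with 1 exception among those at the minimum. Of 13 at the minimum 12 were higher and none lower (median 3.00). Over all 25 members 12 were higher, none lower and the median was 0.64, and C6, C1ra, C4b, C2, Cfb, Cd55 and Cd59a met the minimum through P28 alone. C7, which joins the pore that complement builds in membranes (chr15:4988762-5063740, minus strand), was at 0.0371, 1.33, 11.4 and 459 in order of age (log2 5.21). Serping1, the C1 inhibitor, was at 22.4, 54.9, 61.2 and 566 (log2 3.19), and C3, the central component, at 15.9, 4.51, 68.7 and 417 (log2 2.59). Cfb, of the alternative pathway, was at 1.21, 0.244, 2.06 and 30.5 (log2 3.36). The classical pathway proteases C1s (8.97 to 90.9 FPKM, log2 3.204) and C1ra (1.04 to 12.8 FPKM, log2 2.76), with C4b (1.89 to 22.1 FPKM, log2 3.001), C2 (3.03 to 18.98 FPKM, log2 2.31) and C6 (0.483 to 12.6 FPKM, log2 3.19), were higher, as were the regulators Cd55 (1.65 to 10.8 FPKM, log2 2.15) and Clu (6.51 to 36.3 FPKM, log2 2.31), with Cd59a (4.697 to 7.88 FPKM, log2 0.64) within 2-fold.

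The subunits of C1q, which macrophages make, were at or near 0. C1qa and C1qb were listed at 0 in both postnatal libraries and at 3.06 and 47.02 at E16.5, and C1qc was at 0 at P7 and 0.0748 at P28. Mouse complement C5, under its symbol Hc, was not on the list and was at 0.243 at P7 and 133 at P28 (log2 6.76). None of the complement genes on the list is on a list for another cell type, though alveolar epithelium is known to make several, and the share of the epithelial RNA in these levels was not tested.

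MHC class I genes were higher in 4 of 11, namely H2-K1 (32.9 to 117 FPKM, log2 1.799), H2-D1 (35.03 to 76.6 FPKM, log2 1.11), H2-T23 (2.14 to 9.89 FPKM, log2 1.79) and Tapbp (5.18 to 14.5 FPKM, log2 1.32), with B2m within 2-fold (363 to 586 FPKM, log2 0.69). Of the interferon-related genes 10 of 17 were higher and none lower (median 1.28), and over all 30 members 12 were higher (median 0.83). They include the gamma receptor chain Ifngr1 (23.6 to 88.3 FPKM, log2 1.86), Ifitm3 (239.9 to 691 FPKM, log2 1.52), Irf9 (3.15 to 10.4 FPKM, log2 1.46) and Stat2 (2.92 to 9.46 FPKM, log2 1.41). The interferon-induced genes Rsad2 (0.312 at P7 and 0.271 at P28), Irf7 (0.636 at P7 and 1.59 at P28) and Isg15 (0.609 at P7 and 1.83 at P28), stayed under the minimum.

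Genes that handle foreign compounds and aldehydes were higher in 18 of 23 and lower in none (median 2.04), and over all 31 members 22 were higher (median 1.82). After Inmt the largest differences were those of Cbr2, a carbonyl reductase (1.29 to 951 FPKM, log2 8.698), Cyp2f2, a cytochrome P450 of club cells (0.322 to 262 FPKM, log2 7.64), and Aldh1a1. The glutathione transferases Gsta3 (0.701 to 35.4 FPKM, log2 4.42), Gsta4 (8.39 to 65.6 FPKM, log2 2.83) and Gstm1 (57.4 to 269 FPKM, log2 2.21) and the monooxygenase Fmo2 (16.4 to 237 FPKM, log2 3.78) were higher too. Cbr2 and several of these enzymes are abundant in club cells, whose marker Scgb1a1 was at 17848 at P28. The extracellular antioxidants Gpx3 (14.3, 59.9, 11.4 and 579 in order of age, log2 5.55) and Sod3 (0.126, 1.75, 8.86 and 288, log2 4.88) led the antioxidant list, of which 8 of 20 were higher and none lower. Intracellular Sod1 was within 2-fold (299 to 431 FPKM, log2 0.53).

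Lipid synthesis genes were higher in 9 of 19, led by the desaturase Scd1 (1.89 to 409 FPKM, log2 7.15) and fatty acid synthase, Fasn (4.12 to 40.4 FPKM, log2 3.02). Of the sterol genes Sc5d (2.16 to 13.2 FPKM, log2 2.16), Idi1 (2.08 to 5.55 FPKM, log2 1.09) and Lss (4.08 to 9.79 FPKM, log2 1.09) were higher and Hmgcs1 (5.58 to 8.202 FPKM, log2 0.48) and Sqle (5.27 to 9.58 FPKM, log2 0.76) within 2-fold. As deposited Idi1 and Lss were within 2-fold too, and 4 of 19 lipid synthesis genes were higher. Surfactant synthesis in type 2 cells draws on Scd1 and Fasn, and the type 2 markers were higher as given above. Oxidative phosphorylation was flat, with none of 29 genes higher or lower and differences from -0.35 (Cyc1) to 0.76 (Ndufa1). Ribosomal protein genes were higher in 3 of 56 and lower in none (median -0.06). Of the glycolysis genes 3 of 11 were higher, Pfkfb3 (2.54 to 14.1 FPKM, log2 2.09), Aldoa (24.3 to 70.8 FPKM, log2 1.501) and the glucose transporter Slc2a1 (2.07 to 6.55 FPKM, log2 1.297).

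Secretory and lysosomal genes were on the higher side. Endoplasmic reticulum chaperones were higher in 9 of 22 and lower in none (median 0.73), with Hspa5, BiP, (191 to 483 FPKM, log2 1.33), Herpud1 (4.21 to 30.000 FPKM, log2 2.57) and Xbp1 (23.8 to 62.9 FPKM, log2 1.37). As deposited 6 were higher and Hspa5 missed 2-fold at 0.98. Of the lysosomal genes 10 of 23 were higher, among them the cathepsins Ctsh (3.03 to 72.9 FPKM, log2 4.199) and Ctsc (5.18 to 39.4 FPKM, log2 2.71) and the sterol carrier Npc2 (8.57 to 60.1 FPKM, log2 2.68), and as deposited 5 were.

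Immediate early genes, which tissue dissociation can induce, were higher in 8 of 19, with Fos at 137, 78.7, 28.9 and 109 in order of age (log2 1.88) and Zfp36 at 283, 972, 44.4 and 175 (log2 1.95), while Egr1 (78.8 to 115 FPKM, log2 0.54) and Jun (59.2 to 93.7 FPKM, log2 0.65) were within 2-fold. Fosl2, Junb, Atf3, Zfp36 and Btg2 were at higher levels in both fetal libraries than at P28. Heat shock genes were higher in 4 of 13, with Hspb1 (18.7 to 123 FPKM, log2 2.65) and Hsph1 (7.79 to 36.6 FPKM, log2 2.099). Of the glucocorticoid response genes 13 of 15 were higher and 1 was lower (median 2.34, and 2.14 over all 16). Hsd11b1, which regenerates active glucocorticoid, was at 4.74, 21.4, 6.18 and 232 (log2 5.02), Zbtb16 at 2.47, 13.6, 0.23 and 27.1 (log2 4.51), Tsc22d3 at 4.72, 12.1, 3.59 and 36.4 (log2 3.03) and Fkbp5 at 7.48, 17.96, 1.15 and 6.301 (log2 1.76). In the last 3 P7 was the lowest library, and the receptor Nr3c1 was level (14.5 to 12.5 FPKM, log2 -0.19). Sgk1 was the lower member (6.94, 7.45, 55.9 and 18.3, log2 -1.56).

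Clock genes were higher in 4 of 9 and lower in 1, but in 2 and 2 of 11 as deposited, where Bhlhe40 and Cry2 missed 2-fold, and in 2 and 0 with a pseudocount of 5. The repressor Nr1d1, REV-ERB alpha, was at 0.391, 0.754, 4.82 and 91.6 in order of age (log2 3.99), Per1 at 14.2, 19.5, 5.85 and 21.4 (log2 1.71) and Bhlhe40 (6.62 to 15.2 FPKM, log2 1.09), and Hlf was lower (13.9 to 5.62 FPKM, log2 -1.17). Arntl, which opposes Nr1d1 in phase, was under the minimum at 1.79 at P7 and 3.86 at P28, and the hour of collection is not stated in the labels. In the 20 windows of 15 clock genes CACGTG was found in 5 (25%) against 6.02% of all windows, and TTATGTAA in 1 (5%) against 0.819%. The CACGTG windows belong to 4 genes, Per1, which was higher, and Bhlhe41, Cry1 and Tef, which were under the minimum. TTATGTAA was in the window of Per3, also under the minimum. The windows of Nr1d1, Cry2 and Hlf held neither motif.

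**Figure D5:**
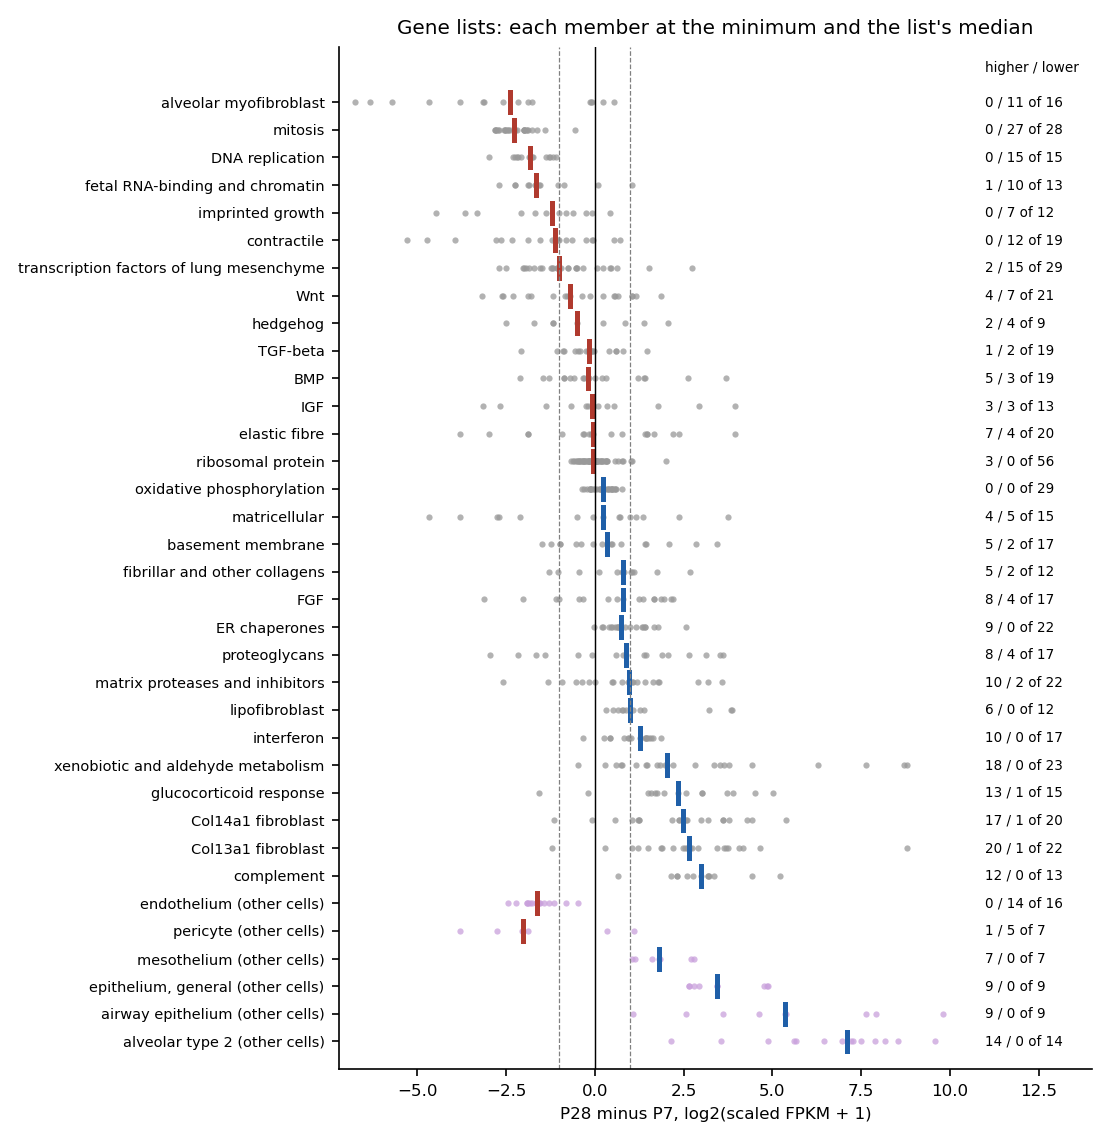
Difference between the P28 and P7 libraries on the log2(scaled FPKM + 1) scale for every member at the minimum of 35 lists, with the list's median as a bar (red below 0, blue above) and the number higher and lower at the right; lists for other cell types are in purple at the foot. The alveolar myofibroblast and mitosis medians are lowest among the fibroblast and function lists, the complement median is highest, and the alveolar type 2 median of 7.10 is above every other in the plot.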

How the data were processed

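RNA of Pdgfra+ lung fibroblasts was sequenced as paired ends from Nextera XT libraries, per the labels' protocols. The authors deposited 1 table of FPKM with 23931 entries and a column for each age. The submitters' processing notes name TopHat, TopHat2 2.0.9, GRCm38 and mm10, and the program behind the FPKM was not given in the sources used here. Positive values reach down to a log10 of -256, so a listed 0 may stand for a failed estimate: Actr3 and Wwtr1, used by most cells, are listed at 0 at P7 and at 29.4 and 10.6 scaled FPKM at P28. For 258 symbols with several entries the FPKM were added up, which left 23444. Each column was divided by its median ratio over genes at 1 FPKM or more in all 4 columns, and values were compared as log2(value + 1) for genes at 5 or more in the higher library. With single libraries there was no test. Reads from overlapping or antisense genes cannot be separated.

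The 59 gene lists (1231 entries, 1224 in the table) and the comparison were chosen with earlier results of these data known, so no list is independent evidence of its direction. Lists overlap. Genes for the text were drawn by rule, and those described among them were picked for their role after their values were seen: Pdgfra; the 20 largest differences each way among genes at 10 or more, predicted genes, small RNAs and near-identical copies passed over; per list the 8 largest differences and 3 most abundant members; all signalling members at the minimum; the 10 most abundant genes per library; sex-linked genes. A few members outside the rule are named likewise. Gene positions come from GENCODE M21 (GRCm38) and promoters from RefSeq (GRCm38.p6). Alternatives were no scaling, upper-quartile scaling, scaling from P7 and P28 alone, pseudocounts 0.1 and 5, no minimum, a minimum of 20, a 4-fold threshold and the largest entry per symbol. The code was tested on simulated data. Python 3.11.15, numpy 2.4.6, pandas 2.3.3 and matplotlib 3.10.9 were used.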

Additional observations from a re-analysis of the deposited data

How the results depend on the processing

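No paired analysis was possible because each age has 1 library and the labels carry no replicate numbers. The main counts were 932 genes higher and 654 lower at P28. As deposited, 747 were higher and 1202 lower, and all 654 lower and 725 of the 932 higher genes were called the same way. A pseudocount of 5 gave 619 and 379, no minimum 1463 and 946, a minimum of 20 FPKM 411 and 244, and a 4-fold threshold 404 and 194. Upper-quartile scaling (885 and 655), scaling from P7 and P28 alone (996 and 748) and a pseudocount of 0.1 (1027 and 733) stayed within 1.5 times. So did leaving out the genes on lists for other cell types (888 and 632) and small RNA entries (925 and 645), both chosen after seeing the data. The former takes out listed markers only, so it cannot show how much of the counts comes from RNA of other cells. Mitosis genes lower at P28 numbered 4 at a minimum of 20 FPKM, where fewer reach the minimum, and contractile genes lower numbered 6 at 4-fold. The lower count for the alveolar myofibroblast and the higher counts for the Col13a1, Col14a1 and complement lists stayed within 1.5 times of 11, 20, 17 and 12 under every alternative run. No named gene called in the main comparison changed sign, but this is no check. Pseudocount, minimum and threshold cannot turn a sign, and without scaling the median moved only to -0.36. Without scaling 36 of 551 named genes lost and 26 gained their call. Depth is unknown, which limits what can be said of genes near 5 FPKM.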

Other observations

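MHC class II genes, on no list and chosen after their values were seen, were higher at P28: the invariant chain Cd74 was at 4.55 at P7 and 407 at P28 scaled FPKM (log2 6.200), H2-Aa at 1.15 at P7 and 129.9 at P28 (log2 5.93), H2-Ab1 at 2.29 at P7 and 77.8 at P28 (log2 4.58) and H2-Eb1 at 0.0623 at P7 and 6.41 at P28 (log2 2.802), in a library with Ptprc at 0.0911 and Ciita, their transactivator, at 0.381. S100g, a calcium-binding protein, was at 0.211 at P7 and 108 at P28 (log2 6.49), and Lcn2, lipocalin 2, at 28.8, 2.62, 0.751 and 132 in order of age. Alveolar type 2 markers summed to 27.6 at P7 and 12680 at P28. The part of epithelial RNA in the class II, S100g and Lcn2 levels was not tested. Mgp, matrix Gla protein, an inhibitor of calcification, was the fifth most abundant gene at P28 (265 at P7 and 2276 at P28, log2 3.100).

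Among long noncoding RNAs at 10 scaled FPKM or more, Neat1, the scaffold of paraspeckles, was at 1.26 at P7 and 44.6 at P28 (log2 4.33), while Malat1 beside it was at 853 at P7 and 1369 at P28 (log2 0.68). Of 37 long noncoding genes at the minimum 9 were higher and 8 lower. Small RNA entries were 7 higher and 9 lower of 19, with Mir568 listed at 0 at P7 and 1419 at P28 and Mir3066 at 619 at P7 and 0 at P28. FPKM of such short features is not a level of the mature RNA.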
